A study of Mus musculus with 6 samples.

Results

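The 33 genes described here carry glucose through glycolysis, store and release it as glycogen, move lactate across the membrane and pass pyruvate to the mitochondria. They were taken by gene symbol from a list of pathway members, and all 33 were found among the 55573 genes of the count table. RNA was measured in mouse retinal ganglion cells (RGCs, which send their axons through the optic nerve). According to the labels they were sorted from the retina, and total RNA was sequenced without selection for poly(A) tails. All mice were C57BL/6 with floxed Myh9 and Myh10, the heavy chain genes of nonmuscle myosin IIA and IIB, so both groups carry the floxed alleles. The eyes had received AAV2-GFP (labelled WT, 3 libraries) or AAV2-Cre (labelled dKO, 3 libraries) by intravitreal injection 2 weeks before the animals were killed. Each library pooled 3 retinas from different mice. The sources used here give neither the promoter that drives GFP or Cre nor the age of the mice.

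Glycolysis splits glucose into pyruvate in a fixed series of enzymes, most of which exist as isozymes that tissues use in different proportions. Pyruvate is then either reduced to lactate by lactate dehydrogenase or taken into the mitochondria by the pyruvate dehydrogenase complex, which pyruvate dehydrogenase kinases switch off. The retina is known for turning much of its glucose into lactate even when oxygen is present, mostly in photoreceptors, while Müller glia hold retinal glycogen and exchange lactate with neurons through monocarboxylate transporters.

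Counts outside the ribosomal RNA row, which took 64.2% to 92.8% of each library, numbered 346037 to 576060 in 5 libraries and 1636581 in dKO replicate 3, and this depth limits the precision of each gene. The targeted genes were not detectably lower in the libraries labelled dKO. Myh9 was at 63.6, 68.4 and 60.7 CPM (read counts scaled to a common library total) in WT (here and below, replicates 1 to 3 in order) and at 63.7, 66.2 and 58.2 in dKO (log2 fold change -0.044 ± 0.098, SE; edgeR adjusted p = 0.908). Myh10 was at 19.9, 19.96 and 16.3 against 19.2, 20.6 and 14.2 CPM (-0.15 ± 0.14, SE; adjusted p = 0.735). A count of a whole gene also takes reads from exons that Cre leaves in place, so the deletion is not checked by it. Below, dKO stands for the libraries labelled dKO, and every direction is that of these labels. RGC markers were sparse. Of the counts that remain when ribosomal RNA is set aside, the 12 listed RGC markers took 0.0164% to 0.0204% in WT and 0.0278% to 0.0287% in dKO. The RGC transcription factors Pou4f1, Pou4f2 and Pou4f3, with Nefm and Stmn2, were at 0 in at least 1 library. The 15 Müller glia and astrocyte markers took 3.12% to 3.49%. The levels below are therefore those of the sorted material and not of RGCs alone, and in such bulk RNA fewer cells of a type and less RNA per cell cannot be told apart.

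Pkm and Pgk1 encode the 2 glycolytic enzymes that make ATP. They were the only genes of the set called higher in the libraries labelled dKO at an edgeR adjusted p under 0.05. None was called lower. The count of 2 depended on single libraries: with 1 library left out it was 1, or 0 without WT replicate 2. Of the 33 genes, 32 were abundant enough to test, and Pfkfb2 was not. In edgeR's quasi-likelihood test with Benjamini-Hochberg adjustment over all 8444 genes tested, 2 of 32 were higher (6.25%), against 0.734% of all genes tested, and 0 were lower, against 1.18%. In either direction 1.92% of all genes tested were called. At an unadjusted p under 0.05 the numbers were 8 higher and 0 lower, against 5.66% and 6.88% of all genes tested. DESeq2 called 1 higher and 0 lower, and limma-voom did the same; below an unadjusted p of 0.05 they had 0 and 1 lower. Of the 32, 24 had a log2 fold change above 0 (75.0%, against 49.8% of all genes tested), and the median was 0.13, against -0.00072 over all genes. The set and the lists below were chosen with earlier results of these data known. Their shares beside those of all genes, here and below, are therefore a description and not a test.

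The promoter of Pgk1 is printed because Pgk1 was called, and those of Ldha and Gapdh because these abundant members of the same pathway were not. Each sequence holds the 250 bases before a RefSeq start (GRCm38.p6), 5′ to 3′ on the gene's strand, and none of the 3 windows overlaps an annotated exon. Capitals mark ACGTG on either strand, the letters at the core of the element bound by hypoxia-inducible factors. Where CACGTG reads the same on both strands, it was counted once. The windows are chrX:106186850-106187099 on the plus strand for Pgk1, chr7:46845554-46845803 on the plus strand for Ldha and chr6:125165774-125166023 on the minus strand for Gapdh. The Ldha and Gapdh windows lie inside the annotated genes, in introns of transcripts that start further upstream.
Pgk1: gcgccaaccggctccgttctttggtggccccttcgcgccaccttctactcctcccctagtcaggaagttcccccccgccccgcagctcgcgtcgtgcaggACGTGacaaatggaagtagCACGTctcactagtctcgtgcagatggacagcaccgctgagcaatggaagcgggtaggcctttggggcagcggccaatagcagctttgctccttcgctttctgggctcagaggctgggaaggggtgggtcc
Ldha: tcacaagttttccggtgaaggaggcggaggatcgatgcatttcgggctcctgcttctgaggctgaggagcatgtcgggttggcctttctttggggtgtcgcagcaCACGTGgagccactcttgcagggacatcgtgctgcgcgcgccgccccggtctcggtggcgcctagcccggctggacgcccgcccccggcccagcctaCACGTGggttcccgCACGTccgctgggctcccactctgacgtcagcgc
Gapdh: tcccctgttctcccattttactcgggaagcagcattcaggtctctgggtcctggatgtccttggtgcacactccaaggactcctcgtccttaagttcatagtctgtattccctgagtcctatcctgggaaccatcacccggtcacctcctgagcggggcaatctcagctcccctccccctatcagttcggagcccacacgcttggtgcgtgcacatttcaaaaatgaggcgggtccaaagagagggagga

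Pgk1 had 2 matches, starting 150 and 131 bases before the start. Ldha had 3, at 145, 48 and 34 bases, in the window shown and 0 in that of its other listed start. Gapdh had 0 matches to ACGTG. The letters GCGTG, which the capitals do not mark, matched 2 times in the Gapdh window and 0 times in that of Pgk1. For Ldha they matched 0 times in the window shown and 1 time in the other. The contrast of Pgk1 with Gapdh therefore holds for ACGTG only. Windows were found for 32 of the 33 genes (not Slc2a3), some with several starts, and 16 of the 32 (50.0%) held ACGTG in at least 1 window. Among all genes tested that had a window, 1766 of 6643 did (26.6%). Counted by window, 20 of the members' 49 windows held it (40.8%), against 16.6% of all 32851 windows of this length listed by RefSeq. Those windows include genes that were not tested, and by gene the share over all genes with a window was 18.5%. Windows of 1 gene can overlap, and the Aldoa windows with a match hold the same site. With GCGTG added to ACGTG, 26 of 32 genes (81.25%) and 4242 of 6643 tested genes (63.9%) held a match. Of the Pkm windows, 1 held ACGTG, 75 bases before its start, and both overlap annotated exons. A match describes letters only. The part of these letters in the changes of Pgk1 and Pkm was not tested.

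The order of levels was set by glycolytic enzymes. Levels of different genes are given per length, as CPM per kilobase of exon, with the ribosomal RNA row left out of the total. Over all 6 libraries Aldoa, which cleaves fructose bisphosphate, was highest at 323 ± 41.6 (SD, n = 6), followed by Eno1, an enolase, at 270.5 ± 16.7, Pkm at 248 ± 38.7 and Aldoc, the brain form of aldolase, at 243 ± 21.1. The steps from Eno1 to Pkm and from Pkm to Aldoc were not beyond the spread: Eno1 was above Pkm in 4 of 6 libraries and Pkm above Aldoc in 3 of 6. Tpi1, which interconverts the triose phosphates, at 189 ± 21.1, Gapdh at 137 ± 4.06 and Ldha, the A subunit of lactate dehydrogenase, at 112 ± 7.75 came next. With all annotated exons as the length, this order held in all 6 libraries. Slc16a1 (monocarboxylate transporter MCT1), Pgk1 and Pygb, the brain form of glycogen phosphorylase, lay at 80.1 to 90.8 and changed places between libraries.

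At the low end stood the regulators and a few transporters. Slc2a3, the neuronal glucose transporter GLUT3, was at 6.45 ± 1.96, Slc16a3, the lactate exporter MCT4, at 6.41 ± 2.04, Gys1, glycogen synthase, at 4.23 ± 0.749, and Pfkfb2, which makes and breaks down the phosphofructokinase activator fructose 2,6-bisphosphate, at 2.23 ± 1.15 (SD, n = 6 each). Of the 32 steps between neighbours in this order, 10 held in all 6 libraries. The exons of Pfkfb2 overlap those of other genes, as given below, so its level is uncertain. With the longest transcript in place of all annotated exons as the length, Eno1 moved ahead of Aldoa, at 718 against 608. Tpi1 then moved ahead of Aldoc, at 324 against 285, and Ldha ahead of Gapdh, at 204 against 173. Some genes further down changed places too.

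**Figure D1:**
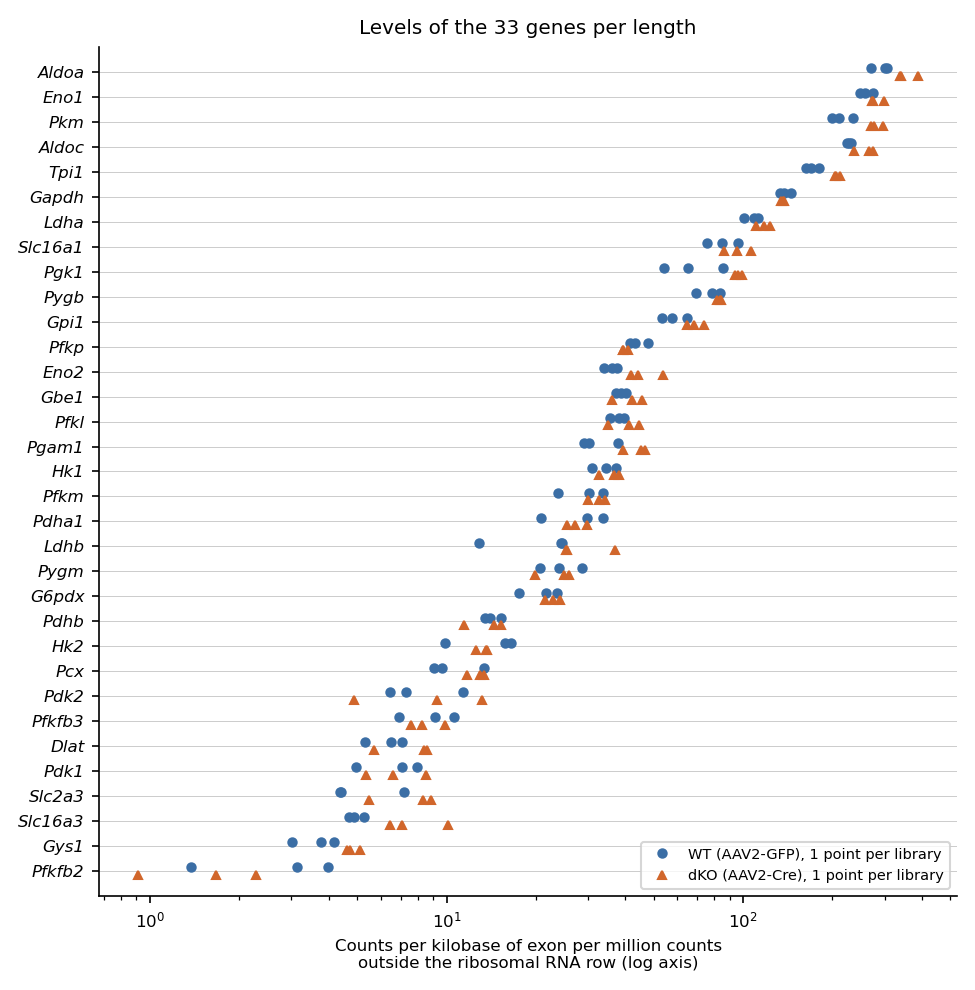
Level of each of the 33 genes as CPM per kilobase of exon with the ribosomal RNA row left out of the total, on a log axis, with 1 point per library (circles WT, triangles dKO) and genes ordered by their mean. Levels run from about 2.23 for Pfkfb2 to 323 for Aldoa, and for most genes the circles and triangles overlap.

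Pkm encodes the pyruvate kinase of most tissues other than liver and red cells, which makes pyruvate and ATP in the last step of glycolysis. It lies on chromosome 9 (ENSMUSG00000032294, 59656368 to 59679375 in GRCm38). CPM without a length uses library sizes scaled by TMM and so compares 1 gene between libraries. These library sizes include the ribosomal RNA row, so the values are not on the scale of the levels per length. On this CPM scale Pkm was at 128, 115 and 112 in WT and at 164, 152 and 145 in dKO. All 3 dKO values lay above all 3 WT values. The log2 fold change was 0.37 ± 0.096 (SE; edgeR adjusted p = 0.0215), a 1.29-fold rise with a 95% interval of 1.13 to 1.47. Leaving out WT replicate 2 (adjusted p = 0.116), WT replicate 3 (0.125) or dKO replicate 1 (0.103) ended the call, while the log2 fold change stayed at 0.32 to 0.42 over all 6 omissions. Without dKO replicate 3, the library with the most counts outside the ribosomal RNA row, it was 0.41 (adjusted p = 0.00696). Counts per gene do not tell the M1 and M2 splice forms apart, and an overlapping row on the same strand, Gm49759, held 62 counts against 5085 for Pkm.

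Pgk1 encodes phosphoglycerate kinase, which makes the first ATP of the pathway and is on the X chromosome (ENSMUSG00000062070, 106187100 to 106203699). It was at 15.95, 13.3 and 21.7 CPM in WT and at 23.2, 23.8 and 23.8 in dKO. The dKO values lay within 1 CPM of each other, while WT replicate 3 stood close below them. The log2 fold change was 0.46 ± 0.13 (SE; edgeR adjusted p = 0.0386), a 1.38-fold rise with a 95% interval of 1.15 to 1.65. The call was lost with DESeq2 (adjusted p = 0.408), limma-voom (0.0639), the CPM filter (0.0503) and the replicate block (0.0589), and by omitting WT replicate 1 (adjusted p = 0.300) or 2 (0.331), or dKO replicate 2 (0.0636) or 3 (0.149). Its log2 fold change ran from 0.34 without WT replicate 2 to 0.67 without WT replicate 3.

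Photoreceptor and other marker transcripts differed between the same libraries. The 15 rod photoreceptor markers took 0.206% to 0.230% of the same total in WT and 0.369% to 0.452% in dKO. No rod marker was at 0 in any library. Of 14 tested, 7 were called higher and 0 lower, against 0.734% and 1.18% of all genes tested. The Müller glia and astrocyte sum was 3.12% to 3.21% in WT and 3.22% to 3.49% in dKO, with 1 of 14 tested markers higher and S100b at 0 in at least 1 library. The RGC sum, given above, rested on few counts: 1 of 3 tested markers was called higher, and 7 of 12 had under 10 counts in each of the 5 libraries with fewer counts outside the ribosomal RNA row. Bipolar cell markers went the other way, from 0.200% to 0.208% in WT to 0.148% to 0.156% in dKO, with 4 of 11 tested lower. Amacrine cell markers, with Gad2, Slc32a1, Tfap2a and Chat at 0 in at least 1 library, went from 0.0236% to 0.0280% in WT to 0.0292% to 0.0357% in dKO, and microglia and macrophage markers from 0.657% to 0.716% to 0.719% to 0.755%. Cone markers, with Arr3 and Cnga3 at 0 in at least 1 library, went from 0.0338% to 0.0358% to 0.0214% to 0.0279%, and B and plasma cell markers from 0.297% to 0.377% to 0.252% to 0.280%. Of the tested markers, 1 of 2 amacrine and 1 of 14 microglia and macrophage markers were called higher. Called lower were 1 of 3 cone and 1 of 3 B and plasma cell markers. Endothelial and mural markers overlapped, at 0.298% to 0.360% in WT and 0.321% to 0.329% in dKO, with 0 of 6 called. T and NK cell markers overlapped too, at 0.0283% to 0.0315% and 0.0267% to 0.0313%, with 1 of 5 called lower. The part of these marker differences in the changes of Pkm and Pgk1 was not tested.

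**Figure D2:**
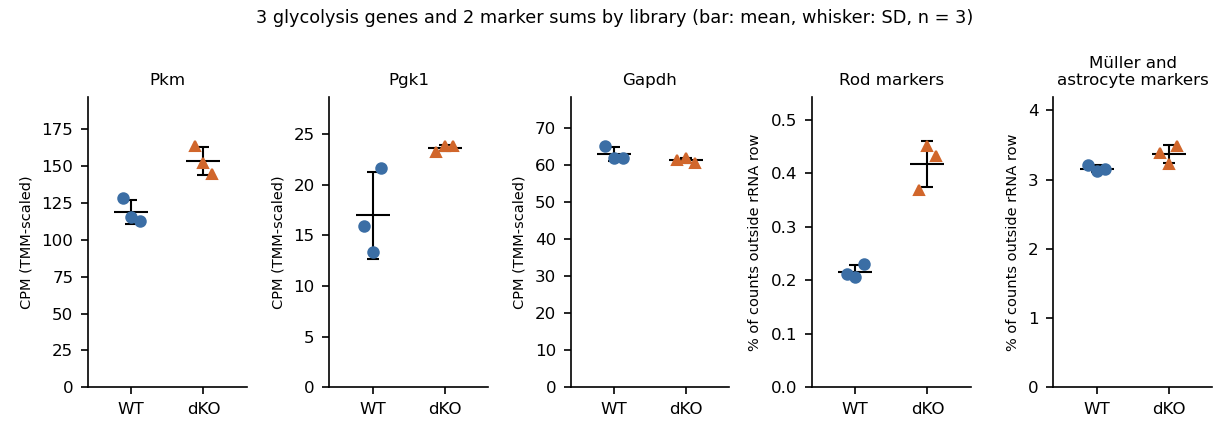
CPM of Pkm, Pgk1 and Gapdh and the summed share of rod and of Müller glia and astrocyte markers, with 1 point per library, the mean as a bar and the SD as a whisker (n = 3 per group). Pkm and Pgk1 are higher in the dKO libraries without overlap, Gapdh lies at 60.7 to 65.3 CPM in all 6 libraries, and the rod sum goes from 0.216% to 0.418% on average.

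Glucose enters the cell through transporters and is held there by hexokinase. Hk1, the hexokinase of brain, was at 32.1, 28.8 and 35.7 CPM in WT and at 34.5, 35.9 and 29.7 in dKO, and the groups overlapped fully (log2 fold change 0.012 ± 0.11, SE). Hk2, the inducible form that photoreceptors also use, was lower in level and did not differ beyond the spread, at 9.22 ± 2.26 and 8.65 ± 0.386 CPM (SD, n = 3 each; edgeR adjusted p = 0.910). Slc2a3 was at 3.50, 3.49 and 5.87 CPM in WT and 7.10, 4.37 and 6.46 in dKO (log2 fold change 0.53 ± 0.25, SE; adjusted p = 0.342). Its groups overlapped, since WT replicate 3 was above dKO replicate 2.

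In the upper part of glycolysis, which spends ATP and splits the sugar, 0 of 7 genes passed. A positive value was found for 6 of 7, against 49.8% of all genes tested. Aldoa was at 96.8, 85.9 and 98.2 CPM in WT and 125, 108 and 106 in dKO, with no overlap (log2 fold change 0.27 ± 0.096, SE; adjusted p = 0.166). Tpi1 was at 50.7, 49.1 and 55.9 against 62.6, 64.3 and 60.1 CPM, again with no overlap (0.26 ± 0.098, SE; adjusted p = 0.214). Both have 95% intervals of the fold change that leave out 1 before adjustment over all genes, 1.05 to 1.37 for Aldoa and 1.04 to 1.37 for Tpi1, and neither passed. Gpi1, the isomerase between glucose and fructose phosphate, had a log2 fold change of 0.20 ± 0.10 and Aldoc of 0.17 ± 0.095 (SE; adjusted p = 0.421 and 0.468).

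Phosphofructokinase, the committed step, has a liver (Pfkl), a muscle (Pfkm) and a platelet (Pfkp) gene. Pfkp was the only tested gene of the set whose dKO values all lay below the WT values, at 60.7, 70.3 and 65.3 CPM in WT and 60.5, 58.2 and 56.2 in dKO. WT replicate 1 and dKO replicate 1 nearly met, and the gene did not pass (log2 fold change -0.17 ± 0.097, SE; edgeR adjusted p = 0.502). Pfkl and Pfkm had values of 0.084 ± 0.12 and 0.083 ± 0.16.

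The lower part of glycolysis, which returns ATP, held both called genes. Of its 6 genes, 2 were called higher and 0 lower, against 0.734% and 1.18% of all genes tested. For 4 of 6 all dKO values lay above all WT values, against 8.66% of all genes tested. Gapdh, which oxidises glyceraldehyde phosphate and serves as a common reference gene, was at 65.3, 62.1 and 62.0 CPM in WT and 61.4, 62.1 and 60.7 in dKO (log2 fold change -0.044 ± 0.096, SE; 95% interval 0.849- to 1.11-fold). Among the 10 genes with the highest levels it had the smallest SD relative to its mean. Read against Gapdh in the same library, a measure that needs no scaling, Pkm stood at 1.96, 1.86 and 1.81 counts per Gapdh count in WT and 2.66, 2.45 and 2.38 in dKO, and Pgk1 at 0.244, 0.214 and 0.350 against 0.378, 0.383 and 0.392. These ratios were chosen after the values were seen and are given as a description, and they show unequal change, not which gene stayed constant.

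Pgam1, the phosphoglycerate mutase, was at 6.56, 6.34 and 8.42 CPM in WT and 8.64, 10.2 and 9.60 in dKO (0.41 ± 0.19, SE; adjusted p = 0.335). Eno2, the neuronal enolase, was at 17.5, 19.3 and 19.1 against 27.8, 22.8 and 21.1 CPM, with dKO replicate 1 highest (0.33 ± 0.13, SE; adjusted p = 0.225). Neither gene's groups overlapped, and neither passed. Eno1, the form of most other cells, was at 146, 152 and 165 against 163, 160.4 and 171 CPM, with overlap (0.095 ± 0.096, SE; adjusted p = 0.758).

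Of the lactate genes, 0 of 4 passed, and all 4 had positive values, against 49.8% of all genes tested. Ldha was at 40.4, 39.6 and 37.5 CPM in WT and 40.3, 42.7 and 43.7 in dKO (log2 fold change 0.11 ± 0.10, SE; adjusted p = 0.728). Ldhb, the B subunit that favours the use of lactate, had only 7 to 23 counts in 5 libraries and was at 4.15, 2.22 and 4.34 against 4.41, 4.37 and 6.20 CPM (0.55 ± 0.26, SE; adjusted p = 0.360). The groups did not overlap, but WT replicate 3 nearly met dKO replicate 2. The log2 fold change of Ldhb ran from 0.26 without dKO replicate 3 and 0.35 without WT replicate 2 to 0.69 without WT replicate 3. Slc16a1 was at 41.9 ± 5.65 and 46.3 ± 4.06 CPM (SD, n = 3 each; adjusted p = 0.590). Slc16a3 was at 3.06, 2.85 and 2.81 against 5.95, 4.13 and 3.66 CPM (0.55 ± 0.30, SE; adjusted p = 0.444), with no overlap and with the 95% interval reaching from 0.974- to 2.21-fold.

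Of the 4 glycogen genes of the set, 0 passed and 3 had positive values, against 49.8% of all genes tested. Pygb was at 41.1, 44.0 and 37.5 CPM in WT and 44.5, 44.4 and 42.1 in dKO, and Pygm, the muscle form of glycogen phosphorylase, at 10.1, 7.29 and 8.67 against 9.21, 7.04 and 8.55. Both enzymes release glucose units from glycogen, and neither passed (log2 fold change 0.091 ± 0.10 and -0.068 ± 0.18, SE; edgeR adjusted p = 0.789 and 0.927). Gbe1, the branching enzyme, was at 23.0 ± 0.591 and 24.1 ± 2.43 CPM (SD, n = 3 each; adjusted p = 0.802). Gys1 had no overlap, at 2.19, 1.58 and 2.04 against 2.50, 2.43 and 2.61 CPM, on 5 to 13 counts in 5 libraries (0.37 ± 0.37, SE; adjusted p = 0.758). Its exons share 310 bases with Ruvbl2 on the opposite strand, a gene with more counts, and with no strand setting stated the reads of both cannot be told apart.

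The enzymes that set the flux and those that pass pyruvate on did not pass either. Pfkfb3, the inducible partner of Pfkfb2, was at 8.74, 7.60 and 5.87 CPM in WT and 6.33, 8.25 and 6.66 in dKO (adjusted p = 0.881). Pfkfb2 had 5, 10 and 10 counts in WT and 7, 3 and 27 in dKO. The exons of Pfkfb2 share 1262 bases with Gm29427 on the same strand, which had 1 count over all libraries. They also share 154 bases with Yod1 on the opposite strand, which had 83 counts against 62 for Pfkfb2. Of 6 genes at the entry of pyruvate into the mitochondria, 3 had positive and 3 negative values, with a median log2 fold change of 0.033. The E1 subunits Pdha1 and Pdhb of pyruvate dehydrogenase were at 11.6 ± 2.72 and 6.08 ± 0.489 CPM in WT, and Pdha1 at 11.2 ± 1.05 and Pdhb at 5.77 ± 0.849 in dKO (SD, n = 3 each). Dlat, the E2 subunit, was at 3.40 ± 0.502 and 4.02 ± 0.829 CPM, and Pcx, pyruvate carboxylase, at 5.61 ± 1.18 and 6.58 ± 0.376. The kinases Pdk1 and Pdk2 were at 5.71 ± 1.25 and 2.92 ± 0.885 CPM in WT and 5.79 ± 1.36 and 3.15 ± 1.45 in dKO. G6pdx, which opens the pentose phosphate path, was at 7.12 ± 1.14 and 7.67 ± 0.345 CPM. Its exons share 418 bases with Ikbkg on the opposite strand, which had nearly as many counts.

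**Figure D3:**
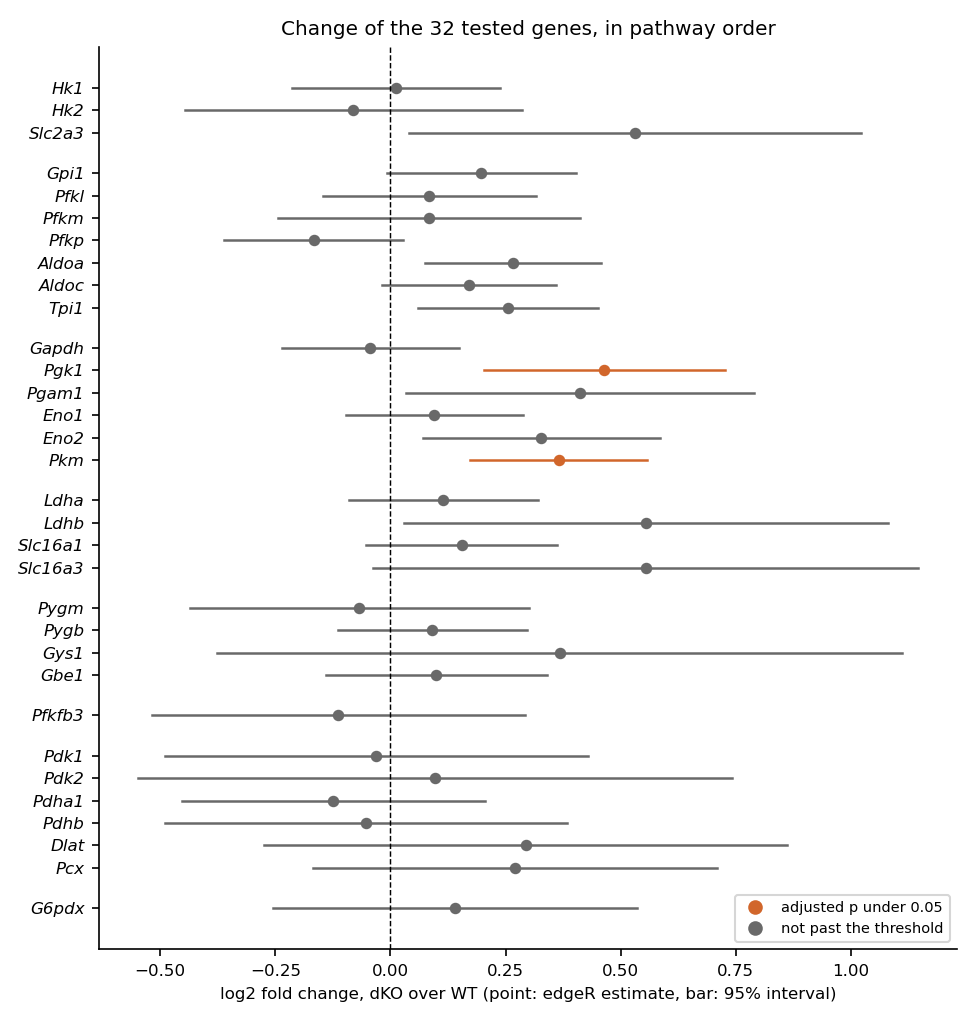
log2 fold change of the 32 tested genes in pathway order, from hexokinases at the top to G6pdx at the bottom, with the edgeR estimate as a point and the 95% interval as a bar; genes past an adjusted p of 0.05 are coloured. Only Pgk1 and Pkm are coloured, and the estimates run from -0.17 for Pfkp to 0.55 for Ldhb.

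The groups' values did not overlap for 10 of 32 tested genes in the higher direction (31.25%), against 8.66% of all genes tested, and for 1 in the lower direction (3.125%), against 8.31%. The 10 were Aldoa, Aldoc, Tpi1, Pgk1, Pgam1, Eno2, Pkm, Ldhb, Slc16a3 and Gys1. As the set was chosen with earlier results of these data known, these shares are a description. Summed over all 33 genes, the share of counts outside the ribosomal RNA row was 0.933%, 0.896% and 0.921% in WT and 1.05%, 1.01% and 1.04% in dKO. All 3 dKO sums lay above the WT sums. The sum rests on the abundant genes: upper glycolysis took 0.338% ± 0.00673 in WT against 0.381% ± 0.0175 in dKO, and lower glycolysis 0.343% ± 0.00611 and 0.400% ± 0.00681 (SD, n = 3 each). Pyruvate entry, at 0.0320% ± 0.00263 and 0.0335% ± 0.000321, and glycogen genes, at 0.0675% ± 0.00410 and 0.0720% ± 0.00313, overlapped between groups. The lactate genes took 0.0793% ± 0.00438 in WT against 0.0900% ± 0.00669 in dKO, without overlap. Pfkfb2 and Pfkfb3 together were the only role group with a lower mean in dKO, 0.00877% ± 0.00119 against 0.00766% ± 0.000638, with overlap.

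Precision set how much could be seen. The half-width of the 95% interval of the log2 fold change ran from 0.19 for Aldoc to 0.74 for Gys1. Of the 30 tested genes that were not called, 8 had intervals that allow a rise of 1.5-fold or more, and 0 had intervals that allow a fall to the same extent.

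Isozyme shares asked whether the libraries differ in which form of an enzyme they use. Not all pairs are isozymes: Gbe1 with Gys1 pairs the branching enzyme with glycogen synthase, and Pdhb with Pdha1 pairs E1 subunits. No pair gave a difference that the design could call. Shares of the summed counts of a pair were computed within each library for 13 pairs, so scaling between libraries plays no part. With 3 against 3 libraries the two-sided exact permutation test cannot go below p = 0.1, and after adjustment over the 13 pairs the smallest p was 0.557.

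Hk2 made up 24.2%, 27.2% and 15.7% of Hk1 and Hk2 counts in WT and 20.7%, 18.7% and 22.6% in dKO (exact permutation p = 0.7). Aldoc made up 45.6%, 48.3% and 46.3% of the aldolase A and C counts in WT and 43.4%, 43.9% and 47.4% in dKO (exact permutation p = 0.3). Hexokinase counts were thus mostly Hk1, while the aldolases were near even. Eno2 made up 10.7%, 11.3% and 10.4% of enolase 1 and 2 counts in WT and 14.6%, 12.5% and 10.96% in dKO. Its dKO replicate 1 was highest and dKO replicate 3 within the WT range (exact permutation p = 0.2).

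Ldhb made up 9.31%, 5.30% and 10.4% of the Ldha and Ldhb counts in WT and 9.87%, 9.28% and 12.4% in dKO (exact permutation p = 0.5). The A subunit therefore held most of the lactate dehydrogenase counts in each of the 6 libraries; per length the B share was 17.9% ± 4.10 (SD, n = 6). Slc16a3 made up 6.93%, 7.20% and 5.53% of its pair with Slc16a1 in WT and 12.4%, 8.17% and 6.77% in dKO (exact permutation p = 0.3). Brain phosphorylase outweighed the muscle form: Pygb held 82.5% ± 2.93 of the pair in WT, against 84.1% ± 1.93 in dKO (SD, n = 3 each; exact permutation p = 0.5), and 76.9% ± 3.06 per length over the 6 libraries.

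Among phosphofructokinases, Pfkp held 70.0%, 71.6% and 68.6% of its pair with Pfkl in WT and 64.7%, 69.4% and 65.7% in dKO (exact permutation p = 0.2), a difference of -3.52 percentage points. Per length the 2 genes were near even, with Pfkp at 51.9% ± 3.04 (SD, n = 6), since the annotated exons of Pfkp are longer. Gbe1 with Gys1 was the only pair without overlap, with the branching enzyme at 91.5%, 93.5% and 91.7% in WT and 90.9%, 89.8% and 90.9% in dKO (exact permutation p = 0.1), and it rests on the few Gys1 counts. Pfkfb3 with Pfkfb2 had the widest difference, 8.10 points, on as few as 33 counts in a library and with overlapping values (exact permutation p = 0.3). That difference ran from 4.39 points without dKO replicate 2 to 14.3 without WT replicate 1.

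**Figure D4:**
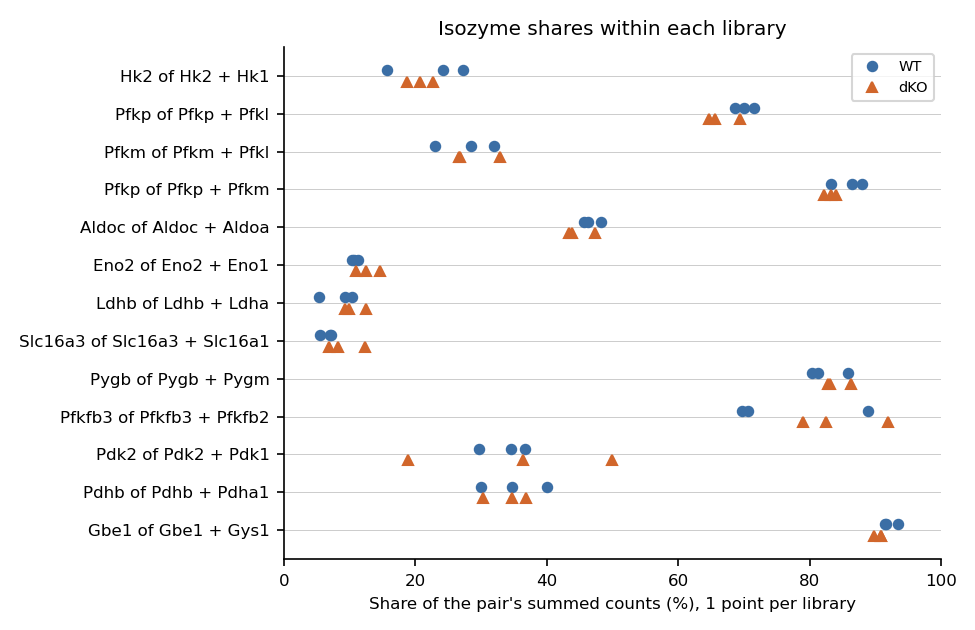
Share of the first gene in the summed counts of each of the 13 pairs, in percent, with 1 point per library (circles WT, triangles dKO). Circles and triangles overlap for 12 of the 13 pairs. Only the pair of Gbe1 with Gys1, which are not isozymes, separates, by under 1 percentage point.

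Other genes of glucose metabolism, 106 in 8 lists chosen by textbook pathway, gave 68 tested genes. Of these, 0 were higher and 1 was lower (edgeR adjusted p under 0.05), against 0.734% and 1.18% of all genes tested. At an unadjusted p under 0.05 there were 6 higher and 1 lower of 68, against 5.66% and 6.88% of all genes tested, and DESeq2 and limma-voom each called 0 higher and 1 lower. Epas1, the hypoxia-inducible factor 2 alpha subunit and 1 of 15 tested genes of the hypoxia response list, fell from 22.4 ± 1.53 to 14.5 ± 1.99 CPM (SD, n = 3 each; log2 fold change -0.64 ± 0.13, SE; adjusted p = 0.000879). Hif1a was at 0.081 ± 0.10, Vegfa at -0.20 ± 0.16 and Bnip3 at 0.29 ± 0.20 on the log2 fold change scale, and the list's median was -0.068. These 3 genes, and Slc2a1 and Bsg below, were picked for mention after their values were seen.

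The glycogen list had 13 tested genes and 0 called. Its smallest p belonged to Pgm2l1, a glucose bisphosphate synthase, at 5.35 ± 1.04 and 8.27 ± 0.750 CPM (log2 fold change 0.66 ± 0.21, SE; adjusted p = 0.0965), and Ppp1r3c, a subunit that brings a phosphatase to glycogen, at 14.3 and 18.7 CPM on average (0.34 ± 0.14, SE; adjusted p = 0.250). In the glycolysis and glucose transport list 0 of 6 passed, with Pfkfb4 at 0.66 ± 0.32 and Hkdc1 at 0.16 ± 0.14. The glucose transporter GLUT1 gene Slc2a1, with 89 to 169 counts in 5 libraries, was at -0.023 ± 0.11. In the lactate and pyruvate transport list 0 of 4 passed, with Emb, a partner of monocarboxylate transporters, at 0.42 ± 0.27 and Mpc2, a mitochondrial pyruvate carrier, at 0.33 ± 0.33. Bsg, the usual partner of MCT1, was at -0.034 ± 0.094.

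The citrate cycle list had 0 of 17 called, with a median log2 fold change of 0.044 and the smallest p for Mdh1 (0.22 ± 0.12, SE) and Idh3a (0.41 ± 0.23). Pentose phosphate genes had 0 of 6 called (H6pd 0.28 ± 0.21 and Tkt 0.14 ± 0.12), the remaining pyruvate dehydrogenase genes 0 of 5 (Dld -0.21 ± 0.23 and Pdp2 0.21 ± 0.31), and the gluconeogenesis genes 0 of 2 (Pck2 0.48 ± 0.31 and G6pc3 0.077 ± 0.391). Over the 68 tested genes the median log2 fold change was 0.056, and 10 (14.7%) were higher without overlap, against 8.66% of all genes tested, and 2 (2.94%) lower, against 8.31%.

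**Figure D5:**
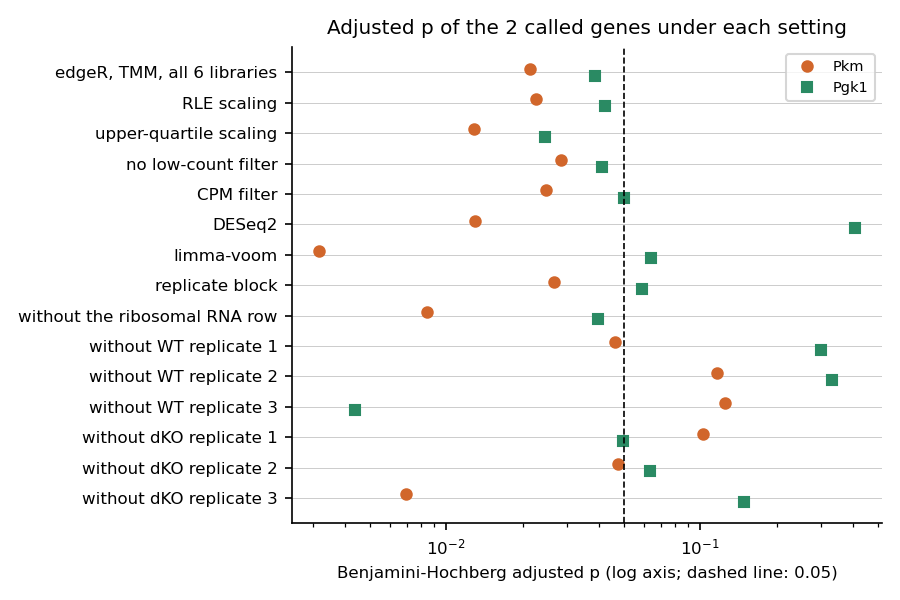
Benjamini-Hochberg adjusted p of Pkm and Pgk1 under each setting, on a log axis, with the dashed line at 0.05. Pkm lies right of the line for 3 of the 6 omitted libraries and left of it under all other settings shown; Pgk1 lies right of it under 4 settings with all libraries and for 4 of the 6 omitted libraries.

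Several of these genes have processed copies elsewhere in the genome, so reads could be shared. Of 16 rows named as copies of a member, 3 had any count, 5 counts in all, and a second row with the symbol Aldoa held 5 counts against 3819 in the row used. Copies under other names were not searched, and the sources used here do not say how reads with several matches were handled.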

How the data were processed

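The authors deposited raw counts, in whole numbers and without normalization, for Ensembl genes in 6 libraries. The submitters' processing notes name GRCm38, STAR 2.7.0d and DESeq2 1.22.2; for the counting program, its strand setting and the annotation, the answer is not given in the sources used here. Library totals were 4569880 to 6146226.

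Genes passing filterByExpr (minimum count 10 and total 15) entered edgeR 4.0.16 under R 4.3.3. Scaling was by TMM, and the two-sided quasi-likelihood test had group as its only term, with Benjamini-Hochberg adjustment over all 8444 genes. The steps were tested on simulated data. An SE is the size of the fitted log2 change over the root of its F statistic. Lengths and positions came from GENCODE M21 (GRCm38), promoters from RefSeq (GRCm38.p6). Alternatives were RLE and upper-quartile scaling, no low-count filter, a filter of CPM of at least 5 outside the ribosomal RNA row in 3 libraries, DESeq2 1.42.0, limma-voom (limma 3.58.1), the replicate number as a block, the table without the ribosomal RNA row, and each library left out. All members were named; each related list named its called genes or the 2 with the smallest p, and Hif1a, Vegfa, Bnip3, Slc2a1 and Bsg were added after their values were seen. Members and lists were chosen with earlier results of these data known. The labels do not say whether replicates share mice, so p-values measure only how these libraries vary, and that may be technical. Figures were drawn with matplotlib 3.10.9.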

Additional observations from a re-analysis of the deposited data

How the results depend on the processing

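Of 448 recomputed log2 fold changes of the 32 tested genes, 416 kept their direction and their side of the threshold, 11 of Pkm or Pgk1 lost the call and 21, of uncalled genes, changed sign. The number of higher genes was 1 with DESeq2, with limma-voom, with the CPM filter and with the replicate block, and 0 to 1 with a library left out; Epas1 was called under all 15 settings run. With all libraries, Hk1 changed to -0.011 with limma-voom and Pdk1 to 0.0030 without the low-count filter and 0.018 with the replicate block. With a library left out, values ran from -0.0084 to 0.26 for G6pdx, -0.055 to 0.12 for Hk1, -0.27 to 0.022 for Hk2, -0.28 to 0.018 for Pdha1, -0.10 to 0.014 for Pdhb, -0.20 to 0.13 for Pdk1, -0.11 to 0.41 for Pdk2, -0.26 to 0.0435 for Pfkfb3, -0.038 to 0.20 for Pfkm and -0.17 to 0.056 for Pygm. In percentage points, share differences ran from -5.04 to 0.724 for Hk2 with Hk1 and -1.42 to 3.07 for Pfkm with Pfkl. They ran from -6.02 to 9.52 for Pdk2 with Pdk1 and -3.39 to 1.61 for Pdhb with Pdha1. Per kilobase, Pdk2 with Pdk1 gave -0.0886. The highest level was 718 with the longest transcript as the length. The cause of these shifts was not tested. The labels give both groups the same replicate numbers and no pairing. Deviations of same-numbered libraries correlated at 0.0129 to 0.0287, each library correlating best with its own number, and the replicate block gave 58 higher and 100 lower genes in all against 62 and 100 without it. Over all genes, DESeq2 called 33 higher and 43 lower, the fit without WT replicate 1 gave 29 and 61, and that without dKO replicate 3 gave 50 and 66, so percentages of all genes called move with these settings too. The minimum of 30 counts left out Pdk2 with Pdk1. That setting only drops pairs, so it could not move the share of a pair it kept. Depth limits the genes with few counts most: 10 of the 33 had under 20 counts in some library.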
